A study of Mus musculus with 6 samples.

Results

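The genes described here are the 9 core genes of the Hedgehog pathway in mouse embryos that lack the histone variant H3.3. They are the ligands Shh, Ihh and Dhh, the receptor Ptch1, the signal transducer Smo, the decoy receptor Hhip and the transcription factors Gli1, Gli2 and Gli3. They were picked by gene symbol from 23366 genes in the count tables, and all 9 were present and passed the filter on low counts, which 15075 genes passed. The genes were chosen from the pathway with earlier results of the same knockout and control counts in view, so their differences between the groups are given as a description, and the adjusted p-values beside them support nothing.

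Whole embryos were collected at stage E10.5, mid-gestation, and 1 RNA-seq library of polyadenylated RNA was made for each of 3 knockout and 3 control embryos of mixed C57BL/6 CD1 129 strain. The knockout embryos were H3f3afl/- and H3f3bfl/-, so each of the genes that encode H3.3 had 1 null and 1 floxed allele. The control embryos were H3f3afl/+ and H3f3bfl/+, with a wild-type allele in place of the null one. Both groups were Sox2-CreTg/0 and Trp53-/-, so the floxed alleles of the controls were open to deletion too and every embryo lacked p53. Sox2-Cre acts in the epiblast, from which the embryo proper forms, while the extraembryonic endoderm of the yolk sac does not descend from it. The study is titled as one on H3.3 and genome integrity in development, and the comparison asks how the pathway's genes differ with the loss of H3.3.

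Hedgehog ligands are secreted proteins that bind Ptch1. Without ligand, Ptch1 holds Smo inactive and Gli3, with Gli2, is processed to a repressor, and with ligand Smo enters the primary cilium and the GLI proteins become activators. Gli1, Ptch1 and Hhip are themselves transcribed in response, which makes them the usual readouts: Gli1 is an activator that amplifies the response, while Ptch1 and Hhip bind ligand and limit it. At this stage Shh comes from the notochord, the floor plate of the neural tube, the posterior limb bud and the gut endoderm, and patterns the neural tube, somites and limbs around them.

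The libraries held 24952853 to 27871038 gene counts in knockouts and 27775576 to 30461689 in controls. The targeted genes were checked in CPM, which is counts scaled to a common library size, given as mean ± SD (n = 3 each). Tests are edgeR's quasi-likelihood test with Benjamini-Hochberg adjustment over all tested genes. H3f3a was at 67.7 ± 2.91 CPM in knockouts and 349 ± 15.4 CPM in controls (edgeR adjusted p = 1.5e-06). H3f3b was at 455 ± 56.8 CPM in knockouts and 691 ± 31.5 CPM in controls (adjusted p = 0.0257). Trp53 was at 4.52 ± 1.27 CPM in knockouts and 2.75 ± 0.490 CPM in controls (adjusted p = 0.169). The labels do not name the exons removed, and reads of the remaining exons are counted too. All 10 of 10 macrophage markers were called lower, summing to 2.16 to 3.18 CPM in knockouts and 58.7 to 70.2 CPM in controls. Neuron markers were below 0 in 9 of 9, with Nhlh1 called (-0.60 ± 0.11, adjusted p = 0.0333), and summed to 835 to 1119 CPM in knockouts and 1007 to 1363 CPM in controls. Of 8 heart markers 3 were above 0 and 5 below, with a median of -0.02, and Nppa among them was called higher (1.56 ± 0.23, adjusted p = 0.0138). Single markers of yolk sac endoderm and endothelium were also called and are given beside the genes they bear on. The other marker lists had 0 called. The part of these shifts in the pathway genes was not tested. Litters are not given in the labels, so each p-value covers the spread among these libraries and no more, which may be partly technical.

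The promoters of Ptch1 and Hhip are shown because these genes have like roles as induced, ligand-binding feedback genes but unlike fold changes. The difference between the genes was not tested. Ptch1 was higher in knockouts and Hhip was close to its control level. The 250 bases before each annotated start are given 5' to 3' on the gene's strand, from RefSeq on GRCm38.p6. They lie at chr13:63565736-63565985 (minus strand, GC content 78.4%, 41 CpG dinucleotides) and chr8:80058009-80058258 (minus strand, GC content 76.0%, 28 CpG dinucleotides).
Ptch1: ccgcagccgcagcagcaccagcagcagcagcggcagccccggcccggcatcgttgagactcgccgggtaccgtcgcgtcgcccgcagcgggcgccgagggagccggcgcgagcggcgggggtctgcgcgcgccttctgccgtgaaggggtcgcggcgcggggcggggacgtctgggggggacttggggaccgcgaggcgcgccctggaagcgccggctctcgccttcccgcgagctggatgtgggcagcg
Hhip: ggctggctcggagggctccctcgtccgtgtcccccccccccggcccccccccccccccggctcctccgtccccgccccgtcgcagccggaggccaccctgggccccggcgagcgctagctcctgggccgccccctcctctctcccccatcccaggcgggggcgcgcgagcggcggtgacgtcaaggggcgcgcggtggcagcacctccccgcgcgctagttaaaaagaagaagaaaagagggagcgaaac
No letters are in capitals because neither stretch held the motif searched, the GLI consensus GACCACCCA or its reverse complement TGGGTGGTC. Windows of 300 bases, 250 before and 50 after the start, were found for 7 of the 9 genes (all but Shh and Gli1), and 0 of 7 held the motif exactly or with 1 mismatch on either strand. Of all 32851 promoter windows, 0.253% held it exactly and 6.74% with up to 1 mismatch. Only 1 window was searched for each of the 7 genes, so any other start of a gene was not covered. Absence of a match says only that these letters are not in this window.

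The levels of the 9 genes spanned a wide range within these embryos. Levels between genes are compared here as CPM per kilobase of mean coding-transcript length, given as mean ± SD over 3 libraries a group. Gli3 was at 57.0 ± 2.18 CPM per kilobase in knockouts and 56.5 ± 3.55 in controls. Smo was at 46.4 ± 5.52 in knockouts and 50.0 ± 2.70 in controls. This put the main repressor-forming factor and the transducer at the top in both groups. Ptch1 (32.8 ± 2.50 in knockouts, 24.8 ± 0.937 in controls), Gli2 (27.5 ± 1.06 in knockouts, 23.7 ± 2.66 in controls) and Gli1 (21.8 ± 2.46 in knockouts, 13.6 ± 1.16 in controls) followed in that order. Ptch1 and Gli2 did not differ beyond their spread in controls, nor did Dhh and Ihh in knockouts, while the other neighbours in the order did. Shh was at 9.23 ± 1.11 CPM per kilobase in knockouts and 7.83 ± 0.642 in controls. Hhip was at 1.83 ± 0.275 in knockouts and 1.79 ± 0.0880 in controls. The other ligands were lowest. Dhh was at 0.388 ± 0.155 CPM per kilobase in knockouts and 0.309 ± 0.0622 in controls, and Ihh was at 0.227 ± 0.138 in knockouts and 0.163 ± 0.0329 in controls. With the summed length of all annotated exons in place of the mean transcript length, Smo and Gli3 stayed at the top of the controls and Hhip, Dhh and Ihh at the bottom. Shh (7.83 CPM per kilobase) then stood above Ptch1 (6.13) and Gli1 (4.97), so the order of the middle genes depends on the length used.

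Shh, the ligand that patterns the neural tube and limb, had 22.9, 29.2 and 26.7 CPM in the knockouts, against 23.1, 20.2 and 23.6 CPM in the controls. Knockouts 2 and 3 were above every control and knockout 1 was between the controls, so the groups overlapped. The means were 26.3 ± 3.15 CPM in knockouts and 22.3 ± 1.83 CPM in controls (SD, n = 3 each). The log2 fold change was 0.24 ± 0.11 (SE), and the adjusted p was 0.289 in edgeR's quasi-likelihood test over all genes. These are whole embryos, so fewer or more cells of a type and less or more RNA per cell cannot be told apart, here and below.

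Ihh, known for its roles in cartilage and gut and in the yolk sac endoderm, had 18, 22 and 5 counts in the knockouts, against 14, 12 and 9 counts in the controls. Knockout 3 was the lowest library and the others of its group the highest, so no direction could be read at this depth (log2 fold change 0.45 ± 0.52, edgeR adjusted p = 0.649). Beside it, summed markers of yolk sac endoderm were at 238, 196 and 123 CPM in the knockouts, against 329, 216 and 208 CPM in the controls. Of 9 tested, 7 were below 0 and 2 above, and Ttr was called lower (-1.69 ± 0.23, edgeR adjusted p = 0.00886). Most of the sum was Afp (105 ± 38.6 CPM in knockouts, 157 ± 44.5 CPM in controls). Of those too low to test, Amn had 4, 4 and 4 counts in knockouts against 0, 0 and 1 in controls, while Apoa4 and Apoc2 were lower. Whole-embryo counts cannot tell which tissue these transcripts came from. The part of these markers in the Ihh counts was not tested. Dhh, the ligand of Schwann cells and the testis, had 30, 14 and 35 counts in the knockouts, against 22, 18 and 26 counts in the controls. Again the knockouts lay on both sides of the controls (log2 fold change 0.33 ± 0.36, edgeR adjusted p = 0.634). Schwann precursor markers summed to 138 to 148 CPM in knockouts and 138 to 168 CPM in controls. Most of this was Fabp7 (79.0 ± 4.55 CPM in knockouts, 93.6 ± 11.8 CPM in controls), also listed as a neural progenitor marker. Gonad markers summed to 163 to 176 CPM in knockouts and 146 to 178 CPM in controls. Most of that sum was Sox9 (105 ± 6.30 CPM in knockouts, 105 ± 16.3 CPM in controls), also listed as a cartilage marker. Of 6 tested gonad markers 5 were above 0 and 1 below, with 0 called. Wt1 had the smallest p of them (0.37 ± 0.11, edgeR adjusted p = 0.131). The part of these markers in the Dhh counts was not tested.

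Ptch1, the receptor and a target of the pathway it inhibits, had 105, 123 and 116 CPM in the knockouts, against 89.1, 83.2 and 88.5 CPM in the controls. Every knockout was above every control. The means were 115 ± 8.75 CPM in knockouts and 86.9 ± 3.28 CPM in controls (SD, n = 3 each). This was a 1.32-fold difference (log2 fold change 0.40 ± 0.08, edgeR adjusted p = 0.0445), with rank 205 among the tested genes by p. The call is near the threshold. It was lost without knockout 3 (log2 fold change 0.39, adjusted p = 0.202), control 1 (0.42, adjusted p = 0.211), control 2 (0.37, adjusted p = 0.136) or control 3 (0.42, adjusted p = 0.107). It was also lost with limma-voom (0.40, adjusted p = 0.0548) and with a filter at 1 CPM (0.40, adjusted p = 0.0525).

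Smo, the membrane protein that Ptch1 restrains, had 160.0, 199 and 167 CPM in the knockouts, against 195, 195 and 177 CPM in the controls. Knockout 2 was the highest library and knockouts 1 and 3 the lowest, and the groups overlapped (log2 fold change -0.11 ± 0.09, edgeR adjusted p = 0.547). It was the only one of the 9 with a fold change below 0. Hhip, the membrane-bound decoy that binds all Hedgehog ligands, had 14.3, 19.3 and 16.2 CPM in the knockouts, against 16.4, 16.9 and 15.4 CPM in the controls. The controls sat within the range of the knockouts, and the means were 16.6 ± 2.50 CPM in knockouts and 16.2 ± 0.798 CPM in controls (SD, n = 3 each; log2 fold change 0.03 ± 0.12, edgeR adjusted p = 0.913). The log2 fold changes of these ligand-binding feedback genes were thus 0.40 for Ptch1 and 0.03 for Hhip, and the difference between the genes was not tested.

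**Figure D1:**
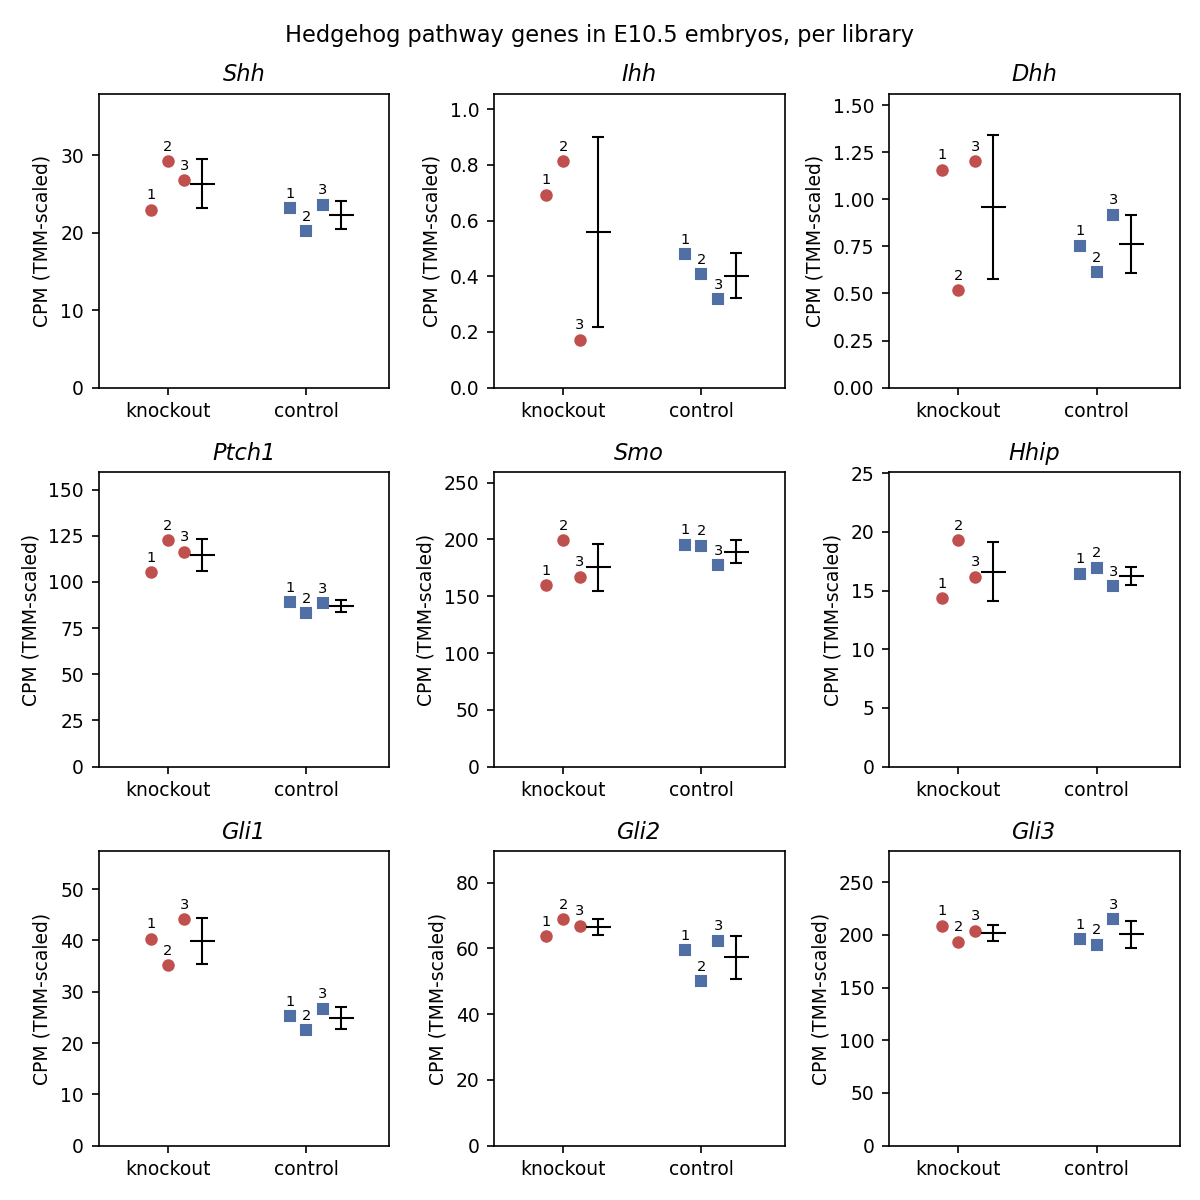
CPM on TMM-scaled library sizes (vertical axes, from 0) of each of the 9 genes in the 3 knockout (left) and 3 control (right) libraries, with points numbered by replicate and bars giving the mean ± SD. The knockout points of Ptch1, Gli1 and Gli2 lie above every control point, while the other 6 genes overlap.

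Gli1, the activator whose transcription is the usual readout of the pathway, had 40.3, 35.2 and 44.1 CPM in the knockouts, against 25.2, 22.5 and 26.7 CPM in the controls. Every knockout was above every control. The means were 39.9 ± 4.49 CPM in knockouts and 24.8 ± 2.13 CPM in controls (SD, n = 3 each). This was a 1.61-fold difference (log2 fold change 0.69 ± 0.11, edgeR adjusted p = 0.0188, rank 106 by p). The call was lost without knockout 3 (log2 fold change 0.61, adjusted p = 0.091), control 1 (0.70, adjusted p = 0.114) or control 2 (0.62, adjusted p = 0.0903), with the direction kept.

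Gli2, the main activator of the response in mouse, had 63.7, 68.8 and 66.9 CPM in the knockouts, against 59.4, 50.0 and 62.3 CPM in the controls. The groups did not overlap, though knockout 1 was just above control 3, and the log2 fold change of 0.22 ± 0.09 had an edgeR adjusted p of 0.253. Gli3, the main source of repressor, had 209, 194 and 204 CPM in the knockouts, against 196, 191 and 215 CPM in the controls. The groups overlapped throughout (log2 fold change 0.01 ± 0.07, edgeR adjusted p = 0.95).

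Counted over the 9 genes, 2 were called higher (adjusted p under 0.05, Gli1 and Ptch1) and 0 lower, beside 1.51% of all tested genes called in either direction and 0.551% called higher. At an unadjusted p under 0.05 there were 3 (with Gli2), beside 19.2% of all tested genes, and the same 3 were the ones with no overlap and knockouts higher, beside 11.8% of all tested genes. Because the rule used this contrast, nothing is read from these shares. The median log2 fold change of the 9 was 0.24, against -0.00101 over all tested genes, and 8 of 9 were above 0, against 7497 of 15075.

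**Figure D2:**
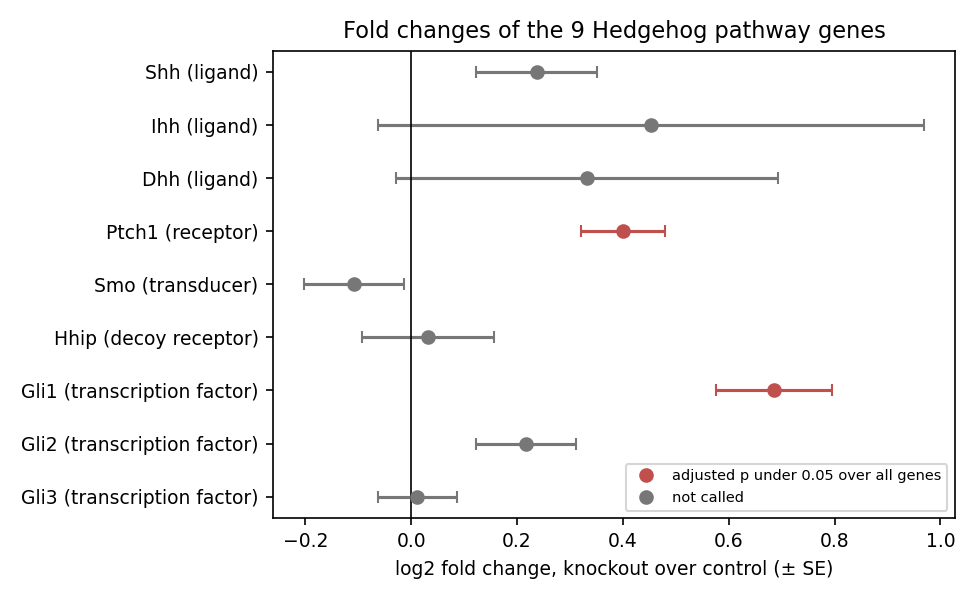
Log2 fold change of knockout over control (horizontal axis, ± SE) of the 9 genes, top to bottom from the ligands to the GLI factors, with genes past an adjusted p of 0.05 over all tested genes in red. Gli1 (0.69) and Ptch1 (0.40) are called, and the widest error bars are those of Ihh and Dhh, the lowest in counts.

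Ratios of counts within a library do not depend on how the libraries were scaled. The ratio of Gli1 to Gli3, the induced activator to the repressor-forming factor, was 0.193, 0.182 and 0.216 in the knockouts, against 0.128, 0.118 and 0.124 in the controls, and the groups did not overlap. Ptch1 to Smo was 0.658, 0.615 and 0.696 in the knockouts, against 0.456, 0.427 and 0.499 in the controls, and the groups were again apart. Gli1 to Hhip was 2.81, 1.82 and 2.72 in the knockouts, against 1.53, 1.33 and 1.74 in the controls, apart but by little for knockout 2. Gli1 to Ptch1 was 0.383, 0.287 and 0.379 in the knockouts, against 0.283, 0.271 and 0.302 in the controls. Here the groups overlapped because knockout 2 fell among the controls. Gli1 to Shh was 1.76, 1.21 and 1.65 in the knockouts, against 1.09, 1.11 and 1.13 in the controls. Gli2 to Gli3 was 0.305 to 0.355 in the knockouts, against 0.262 to 0.303 in the controls. With 3 embryos against 3, an exact two-sided permutation test cannot go below p = 0.1, and no test was run on these ratios.

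**Figure D3:**
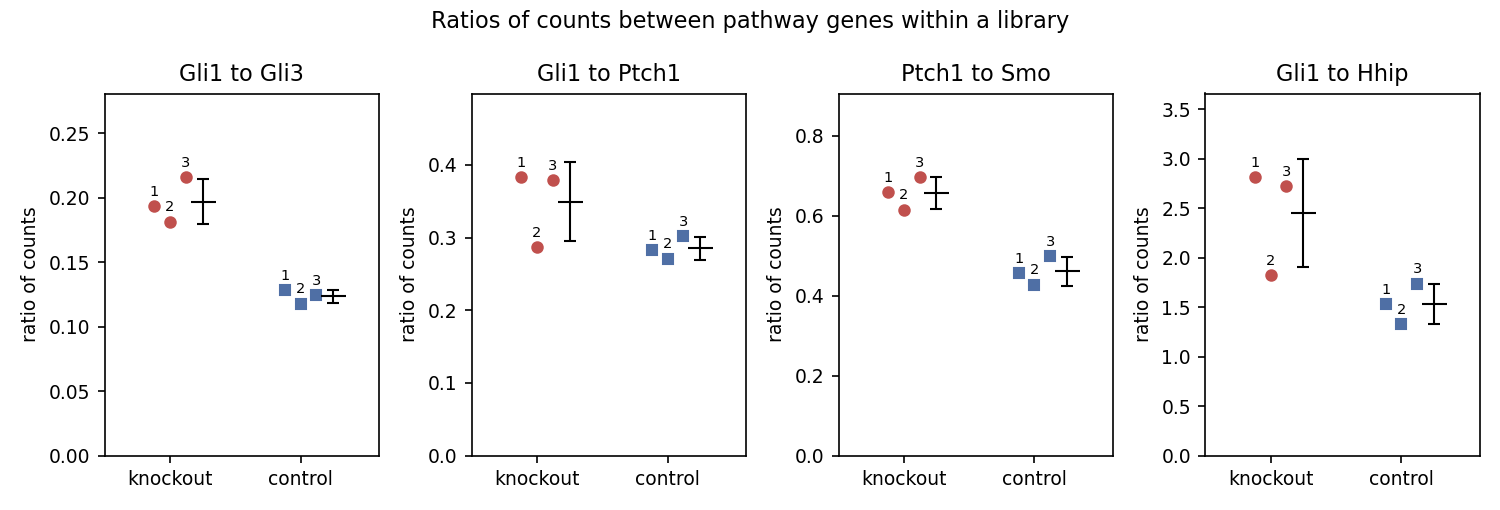
Ratio of counts (vertical axes, from 0) of 4 gene pairs in each knockout (left) and control (right) library, numbered by replicate, with mean ± SD. Gli1 to Gli3, Ptch1 to Smo and Gli1 to Hhip do not overlap between the groups, and Gli1 to Ptch1 does at knockout 2.

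Knockouts 1 and 3, which had the higher Gli1 levels of their group, also had the largest share of alignments outside genes, 18.3% and 18.0%, against 10.6% in knockout 2 and 9.79%, 10.7% and 13.1% in the controls. With that share as a covariate, a fit that called 4.96% of all tested genes, the log2 fold change of Gli1 was 0.53, smaller than 0.69 without it (edgeR adjusted p = 0.0174). That of Ptch1, which was highest in knockout 2, was 0.47 (adjusted p = 0.00949). Hhip was at 0.22 in this fit (adjusted p = 0.313), against 0.03 without the covariate.

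Of 40 other listed genes of the pathway, 38 were tested and 0 were called. There were 8 higher and 2 lower at an unadjusted p under 0.05, beside 10.7% higher and 8.53% lower of all tested genes, and a median log2 fold change of 0.10 (24 of 38 above 0). DESeq2 called 2 of them, Kif7 and Scube1, beside 5.17% of all tested genes by the same tool, and limma-voom called 0. Of the 7 genes for release of the ligand, 5 were tested, since Disp1 was listed at 0 counts in all libraries and Hhatl held 0 to 6 counts. A 0 in these tables need not mean no expression, since the globin genes Hba-a1 and Hba-a2 were also listed at 0 in all libraries while Hba-x held 40255 to 58653 counts. Scube1, which helps release the lipid-modified ligand, had 149 ± 23.0 CPM in knockouts and 111 ± 6.70 CPM in controls (log2 fold change 0.42 ± 0.11, edgeR adjusted p = 0.11). Scube3 had 49.8 ± 2.19 CPM in knockouts and 42.6 ± 2.01 CPM in controls (0.22 ± 0.08, adjusted p = 0.177).

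The 8 genes of reception (such as coreceptors and glypicans) had a median log2 fold change of 0.21, with 7 of 8 above 0. Gpc6, a cell-surface glypican, had 126 ± 16.2 CPM in knockouts and 104 ± 4.18 CPM in controls (0.27 ± 0.10, edgeR adjusted p = 0.18). The 25 genes of transduction inside the cell had a median of 0.01 with 13 of 25 above 0. Kif7, a ciliary kinesin that organises GLI proteins, had 712, 657 and 852 counts in the knockouts, against 626, 568 and 595 counts in the controls (0.39 ± 0.10, adjusted p = 0.103). Ulk3, a kinase that acts on GLI proteins, had 178, 107 and 231 counts in the knockouts, against 98, 104 and 120 counts in the controls (0.75 ± 0.25, adjusted p = 0.161). Ulk3, like Gli1 and Kif7, was lowest in knockout 2 among the knockouts.

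The 42 genes of the primary cilium, the organelle in which Smo acts, had a median log2 fold change of 0.03, with 22 above 0 and 0 called. At an unadjusted p under 0.05, 5 were higher and 2 lower, beside 19.2% of all tested genes in either direction. DESeq2 called 2, Ift172 and Mks1, beside 5.17% of all tested genes, so neither count stands out from the background. Mks1, of the cilium's transition zone, had 315, 242 and 358 counts in the knockouts, against 175, 214 and 216 counts in the controls (0.67 ± 0.16, edgeR adjusted p = 0.0865).

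Of 47 listed genes known to respond to Hedgehog signalling in other work, 46 were tested and 0 were called. There were 10 higher and 1 lower at an unadjusted p under 0.05, beside 10.7% higher and 8.53% lower of all tested genes, with a median of 0.08 and 30 of 46 above 0 (DESeq2 called 1, Cdk6, beside 5.17% of all tested genes). The 12 neural genes had a median of 0.14 with 7 above 0. Nkx2-9, of the ventral neural tube, had 26, 43 and 45 counts in the knockouts, against 18, 29 and 15 counts in the controls (0.95 ± 0.32, edgeR adjusted p = 0.166). Nkx6-2 had 119, 229 and 188 counts in the knockouts, against 125, 109 and 125 counts in the controls (0.65 ± 0.22, adjusted p = 0.166). Scaled for library size, knockout 1 was just above the highest control in both genes. Of the 23 tested genes of mesoderm and limb, 13 were above 0 with a median of 0.05. Prdm1, a transcriptional regulator, had 7.30 ± 0.940 CPM in knockouts and 5.32 ± 0.319 CPM in controls (0.46 ± 0.15, adjusted p = 0.155). Tbx3, a T-box factor of the limb, had 60.7 ± 4.28 CPM in knockouts and 51.8 ± 1.42 CPM in controls (0.23 ± 0.08, adjusted p = 0.174). Among the 11 general response genes 10 were above 0, with a median of 0.19. Cdk6, a cyclin-dependent kinase, had 345, 392 and 410 counts in the knockouts, against 289, 309 and 305 counts in the controls (0.42 ± 0.11, adjusted p = 0.0912). Nr2f2, a nuclear receptor, had 173 ± 2.58 CPM in knockouts and 152 ± 11.0 CPM in controls (0.19 ± 0.07, adjusted p = 0.214).

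The 17 tested genes listed for sites of Shh had a median of 0.18 with 11 above 0 and 0 called. Not all of them mark cells that make Shh, and Sox2 and Fgf8 are also listed as markers of neural progenitors and limb bud. T, of the notochord and also of the tail bud, had 96, 70 and 103 counts in the knockouts, against 37, 32 and 62 counts in the controls (1.11 ± 0.29, edgeR adjusted p = 0.101). Sox17, of definitive endoderm and also of endothelium, had 175, 250 and 214 counts in the knockouts, against 163, 152 and 143 counts in the controls (0.56 ± 0.16, adjusted p = 0.119). Hedgehog signalling restricts the dorsal neural tube. For the 16 genes listed for it the median was 0.07, 9 were above 0 and 7 below, and 0 were called. Not all of these are confined to that domain, such as Dbx1 and Pax6, and Msx1 is also listed as a limb bud marker. At an unadjusted p under 0.05, 3 were higher and 2 lower, beside 10.7% higher and 8.53% lower of all tested genes. Gdf7, of the roof plate, had 39, 48 and 33 counts in the knockouts, against 24, 22 and 18 counts in the controls (0.99 ± 0.27, adjusted p = 0.116).

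**Figure D4:**
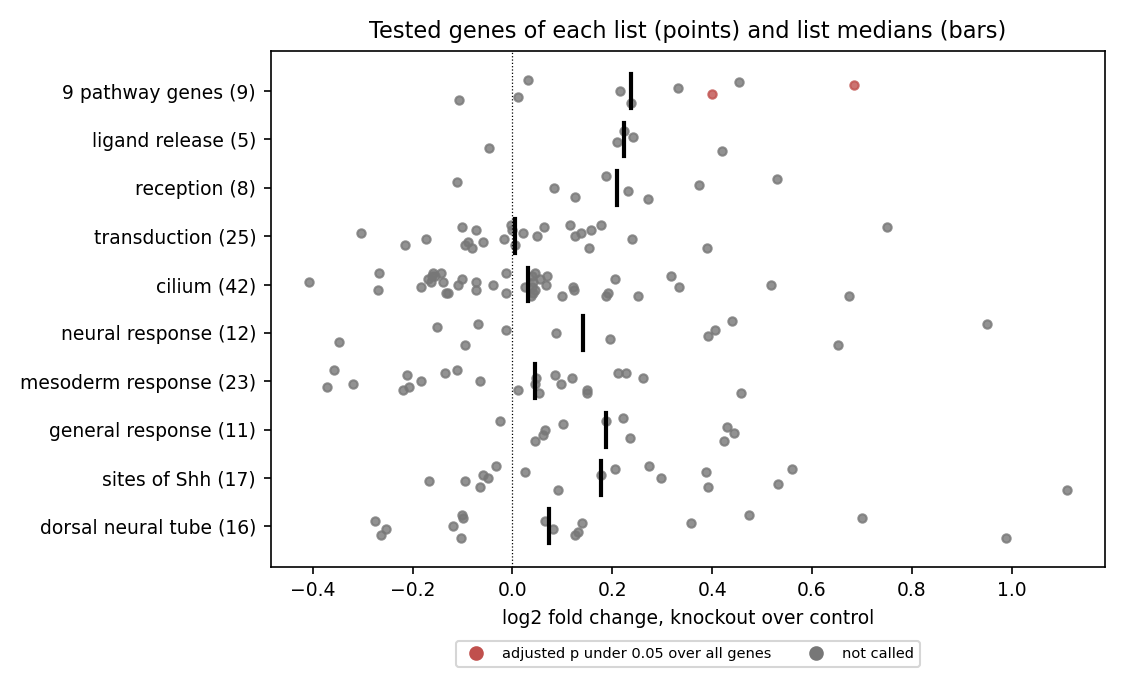
Log2 fold change of knockout over control (horizontal axis) of each tested gene in the 9 pathway genes and the listed gene groups, with the number tested in brackets, list medians as bars and genes called at an adjusted p of 0.05 in red. The only red points are Gli1 and Ptch1, and the other lists spread on both sides of 0.

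Within 2 tested genes on each side of the 9, among 36 neighbours, 1 was called, beside 1.51% of all tested genes. Nothing is read from this count. Cnpy1, on chromosome 5 with Shh and known in zebrafish for a part in FGF signalling, had 139, 118 and 182 counts in the knockouts, against 51, 63 and 76 counts in the controls. Every knockout exceeded every control (log2 fold change 1.28 ± 0.22, edgeR adjusted p = 0.0251). The other tested neighbours of Shh were Rbm33 (0.40, adjusted p = 0.224), Rnf32 (0.30, adjusted p = 0.483) and Lmbr1 (0.04, adjusted p = 0.858).

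The genes whose levels moved most like those of Shh, Ptch1 and Gli1 across the 6 libraries were found from the root mean square difference of centred log2 CPM among 13597 genes. Nearest to Gli1 were Dock6 (0.03), Prpf40b (0.07) and Rhbdf1 (0.07), with Gli1's own spread at 0.36. Dock6 had 2038, 1735 and 2425 counts in the knockouts, against 1412, 1255 and 1452 counts in the controls, with knockout 2 lowest of its group as for Gli1. Nearest to Ptch1 were Kdr (0.03), Slc4a4 (0.04) and Pnma2 (0.04), with Ptch1's spread at 0.21. Nearest to Shh were Pard3b, Gaa and Timp3 (each 0.03), with Shh's spread at 0.17. Likeness took in the difference between the groups, so a like pattern or fold change follows from the choice and supports nothing. Of the genes near Gli1, Dock6, Prpf40b and Rhbdf1 were called (edgeR adjusted p = 0.0257, 0.0445 and 0.0392). Near Ptch1, Kdr, an endothelial receptor, was called too (0.44 ± 0.08, adjusted p = 0.0302). Of the 12 endothelial markers 10 were above 0, and they summed to 434 to 582 CPM in knockouts and 392 to 411 CPM in controls. The part of endothelium in the Ptch1 values was not tested.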

How the data were processed

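Polyadenylated RNA of whole E10.5 embryos was sequenced as stranded libraries, per the labels' protocols. The authors deposited whole-number counts per gene symbol, with no normalization. Per the submitters' processing notes, the tools were HTSeq, Bowtie2, TopHat2 and Trimmomatic (no versions) and the genome mm9. For the counting, strand setting and annotation were not given in the sources used. Reads outside genes (9.79% to 18.3% of alignments) and alignments that were not unique (18.2% to 22.6%) stayed out of library sizes and tests. The deposited repeat counts were not used here.

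The test was edgeR's quasi-likelihood F test (version 4.0.16, R 4.3.3) with robust priors and TMM scaling. Genes were kept by filterByExpr (minimum count 10, minimum total 15). All 6 libraries entered, group was the only term, and p-values were adjusted by Benjamini-Hochberg over 15075 genes. SE was computed as |log2 fold change| divided by √F, and CPM uses TMM-scaled library sizes. Alternatives used DESeq2 1.42.0 and voom of limma 3.58.1, other filters and scalings, each library left out, a replicate block and the outside-gene share as covariate. Lengths came from GENCODE vM21 on GRCm38, matched by symbol, while the counts used mm9.

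The 9 genes and the gene lists (ligand release, reception, transduction, cilium, response, sites of Shh, dorsal neural tube, cell type markers) were chosen with earlier results of these data known. Beside the 9, the text names each list's called genes and those with the smallest p. The latter are 2 for pathway, response and Shh site lists and 1 for others, of markers only where a result turns on them. Named too are called neighbours of the 9 with the genes beside them, and the 3 genes most like Shh, Ptch1 and Gli1. Ift172 and Sox9 were named after their values were seen. The named result of 1 listed gene is not reported here. The 6 libraries are distinct, differing by far more than sampling noise.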

Additional observations from a re-analysis of the deposited data

How the results depend on the processing

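Over 19 alternatives Gli1 kept its direction (log2 fold change 0.53 to 0.77, adjusted p 1.23e-05 to 0.114) and so did Ptch1 (0.35 to 0.47, adjusted p 0.00156 to 0.211). Shh, Ihh and Gli2 kept their direction and stayed uncalled in every alternative that could be fitted, but their size did not hold: with 1 library left out, Ihh ranged from 0.065 (without knockout 2) to 0.90 (without knockout 3), Shh from 0.15 (without knockout 2) to 0.33 (without knockout 1) and Gli2 from 0.13 (without control 2) to 0.28 (without control 3). Uncalled Dhh ranged from 0.13 to 0.63 and Smo from -0.21 to -0.04. With the outside-gene share as a covariate, Dhh was at -0.41, Smo at 0.058 and Gli3 at -0.062, against 0.33, -0.11 and 0.01 without it. In that fit Hhip was at 0.22 (edgeR adjusted p = 0.313), against 0.03 without the covariate. With knockouts 2 and 3 summed, because their file names share a code, Hhip was at -0.023. Leaving out 1 library at a time gave -0.091 to 0.13 for Hhip and -0.024 to 0.068 for Gli3; the cause was not tested. The 227 called genes (83 higher, 144 lower) became 528 at an adjusted p under 0.1, 77 under 0.01, 779 with DESeq2, 142 with a filter at 1 CPM, 748 with the covariate, 449 with knockouts 2 and 3 summed and 60 to 1663 with 1 library left out, the lowest without control 2 and the highest without knockout 2. Of the calls 456 of 779 were higher with DESeq2, 437 of 748 with the covariate, 270 of 449 with knockouts summed and 1159 of 1663 without knockout 2. Of the 9 genes 2 were called, against 0 under 0.01, 1 with limma-voom, 1 with the 1 CPM filter and 0 to 2 with 1 library left out. Of the other pathway genes 0 were called, against 2 with DESeq2, 2 with the covariate, 2 with knockouts summed and 0 to 7 with 1 library left out. Of the response genes 0 were called, against 1 under 0.1, 1 with DESeq2, 4 with the covariate and 0 to 1 with 1 library left out. Of the cilium genes 0 were called, against 1 under 0.1, 2 with DESeq2, 1 with knockouts summed and 0 to 3 with 1 library left out. Beside these counts, DESeq2 called 5.17% of all tested genes and the covariate fit 4.96%. Summing the knockouts called 449 of 15318 genes. The highest counts of the other pathway, response and cilium genes with 1 library left out came without knockout 2, where 1663 of 15348 genes were called. Scaling to library totals moved the median of all genes to 0.06.

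With a replicate block, 589 genes were called (333 higher), 1 of them among the other pathway genes, and Gli1 was at 0.68 (adjusted p = 0.00522) and Ptch1 at 0.40 (adjusted p = 0.0299). Whether the numbers pair the samples is not known. Same-numbered embryos correlated at -0.0859, 0.175 and 0.264, and not every library correlated best with its own number. With 3 libraries a group, these correlations cannot show whether litters or batches were shared. Ihh and Dhh, at 5 to 35 counts, are limited by depth.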
